A study of Mus musculus with 2 samples.

Results

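The FXYD genes code for small single-span membrane proteins that sit beside the Na,K-ATPase, the pump that carries sodium out of cells and potassium in. Single-cell RNA was described here for 5 of them, Fxyd1, Fxyd3, Fxyd5, Fxyd6 and Fxyd7, and for Atp1b1, a beta subunit of the pump. These 6 members were taken by their symbols from the 27998 genes listed with the count matrices. They were chosen by measured values, namely their levels by lineage and library and in SM22-SmoM2 fibroblasts with and without Penk, Egfl6 or Areg, so those differences are given as a description, with no test.

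The cells were Tomato+ dermal cells, sorted from small skin wounds 3 days after complete re-epithelialization and profiled with 10x Chromium 3′ v2 chemistry. Mice aged 4 to 5 weeks carried SM22rtTA; tetO-Cre; R26-Tomato in the control library and SM22rtTA; tetO-Cre; R26-SmoM2/Tomato in the SM22-SmoM2 library. Both received doxycycline at 20 g/kg from day 1 after wounding. The SM22α promoter, that of the smooth muscle gene Tagln, drives rtTA, which with doxycycline switches on Cre, then the red protein Tomato and, in the second genotype, SmoM2, a constitutively active Smoothened. Each library pooled wounds of several mice, and there was 1 library per genotype. Library, mouse and genotype therefore cannot be told apart, no p-value was taken, and the 95% intervals cover counting error only.

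The alpha subunit of the Na,K-ATPase moves the ions, the beta subunit is needed for the pump to fold and reach the plasma membrane, and the FXYD protein changes the pump's affinity for sodium or potassium, or its rate. The genes are used by tissue. Fxyd1 (phospholemman) is best known from heart and muscle, Fxyd3 from epithelia and tumours, Fxyd5 (dysadherin) from cells with weakened cell contacts, and Fxyd6 and Fxyd7 from the nervous system. The FXYD genes Fxyd2 and Fxyd4 are known from kidney and colon. The family is named after a short conserved motif just outside the membrane, proline and phenylalanine, then any residue, then tyrosine and aspartate.

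The coding bases of this motif were read from the GRCm38 transcripts of GENCODE M21, since the symbols tie 5 members together by it. The lines below give 45 coding bases per gene, 5′ to 3′, with the 15 bases of the motif in capitals.
Fxyd1: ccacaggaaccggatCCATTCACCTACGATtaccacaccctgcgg
Fxyd3: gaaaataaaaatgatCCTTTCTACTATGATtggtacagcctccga
Fxyd5: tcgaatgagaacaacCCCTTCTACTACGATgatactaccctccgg
Fxyd6: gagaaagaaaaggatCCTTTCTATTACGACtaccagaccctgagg
Fxyd7: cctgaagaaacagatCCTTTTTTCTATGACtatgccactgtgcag
The motif began at codon 28 of 92 in Fxyd1, codon 29 of 88 in Fxyd3, codon 28 of 94 in Fxyd6 and codon 17 of 80 in Fxyd7. In Fxyd5, whose coding sequence of 178 codons was the longest of the 5 members, it began at codon 134. An exon junction fell at the same place in every gene, 13 bases into the motif with 2 bases after it, also in Fxyd2 and Fxyd4. Over the 21 pairs of the 7 genes the windows shared 22 to 31 of 45 bases. Fxyd1 was closest to Fxyd6 and Fxyd3 to Fxyd4, at 31 bases each and on other chromosomes, while Fxyd7 was closest to its neighbour Fxyd1, at 28.

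Members lie on chromosomes 1, 7 and 9 (GRCm38, GENCODE M21). On the reverse strand of chromosome 7, Fxyd5 (chr7:31032722-31042481), Fxyd7 (chr7:31042513-31051467), Fxyd1 (chr7:31051678-31057199) and Fxyd3 (chr7:31068172-31076704) fall within 43983 bases. Fxyd7 ends 31 bases before Fxyd5 starts, and Fxyd1 ends 210 bases before Fxyd7 starts. Fxyd6 (chr9:45370185-45396159) lies on the forward strand just before Fxyd2. Atp1b1 (chr1:164437109-164458355) lies on the reverse strand. The printed motif windows run over exons 3 and 4 of Fxyd1 and Fxyd6, exons 3 to 5 of Fxyd3, exons 7 and 8 of Fxyd5 and exons 2 and 3 of Fxyd7, all of them coding.

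A pair of members share bases with a gene on the other strand, and the strand counted is not given in the sources used here. The 3′ end of Fxyd3 overlaps Lgi4, a gene of Schwann cells, by 2764 bases, and that of Atp1b1 overlaps Nme7 by 617 bases. How reads from these stretches were assigned to the genes is therefore not known here.

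After removal of 22 and 10 cells with over 10% mitochondrial UMIs (unique molecular identifiers, each standing for 1 transcript molecule), 2856 control cells and 1792 SM22-SmoM2 cells remained. They held 30103855 and 17814222 UMIs, with medians of 8607.5 and 8837.5 per cell. Clusters were named from lineage markers, and 1090 control and 1098 SM22-SmoM2 cells were fibroblasts. Schwann cells numbered 678 and 294, endothelial cells 608 and 226, mural cells 272 and 94, and immune cells 82 and 33. Levels are given as CPM, the UMIs of a gene per 1000000 UMIs of the group, control first. In fibroblasts Gli1, a target of Hedgehog signaling, was at 6.02 and 33.2 CPM, Ptch1 at 12.2 and 147 CPM, and Smo at 52.1 and 57.1 CPM. All 8 fibroblast markers were detected in the fibroblasts of both libraries, with a summed level of 54080 and 33701 CPM.

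The members divided the lineages between them. Fxyd1 was highest in Schwann cells, Fxyd5 in immune and endothelial cells, Fxyd3 in keratinocytes and then Schwann cells, and Fxyd6 and Atp1b1 in control fibroblasts. Fxyd7 was highest in Schwann cells of the control library and in fibroblasts of the SM22-SmoM2 library.

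**Figure D1:**
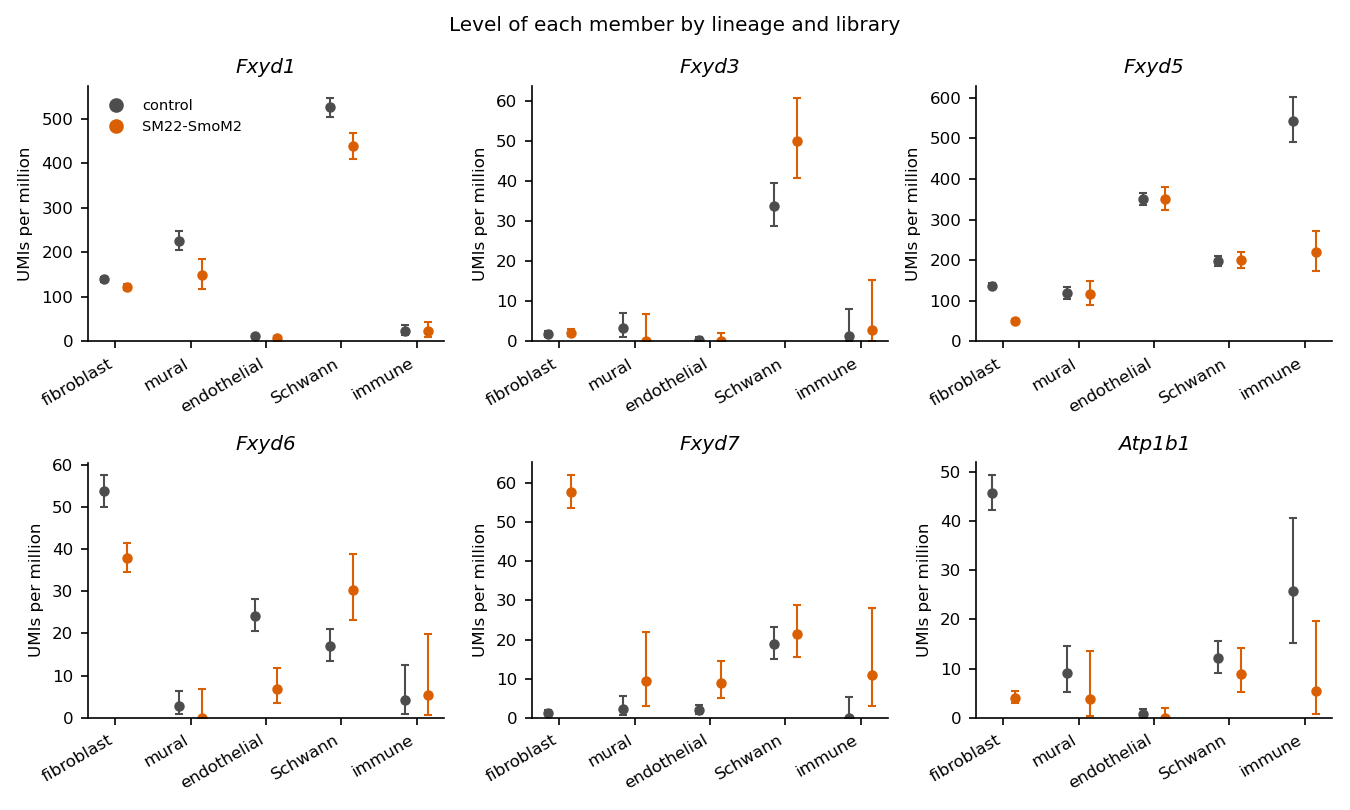
Level of each member (CPM of summed UMIs, with exact Poisson 95% intervals) in 5 lineages of the control and SM22-SmoM2 libraries, 1 library each. Fxyd7 in fibroblasts lies at 1.20 CPM (control) and 57.8 CPM (SM22-SmoM2), and Atp1b1 at 45.8 and 4.09 CPM.

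Fxyd1 was at 525 CPM (interval 505 to 546) in control Schwann cells and 438 CPM (410 to 468) in SM22-SmoM2 Schwann cells. Mural cells, the pericytes and smooth muscle cells around vessels, held 225 and 148 CPM, and fibroblasts 139 and 122 CPM. Fxyd1 was lowest in immune cells, at 22.8 and 21.9 CPM, and in endothelial cells, at 10.98 and 6.73 CPM, of the 5 lineages compared. In control each step of this order down to immune cells was apart in its interval. In SM22-SmoM2, mural cells and fibroblasts overlapped. Among Schwann clusters, Fxyd1 was highest in the one led by Gfra3, Fabp7 and Gpm6b, at 624 and 634 CPM. The cycling cluster led by Crym, Hist1h2ap and Pbk was lowest, at 233 and 240 CPM. Between libraries, Fxyd1 was lower in SM22-SmoM2 mural cells by 0.61 on the log2 scale (interval of the ratio -0.98 to -0.26).

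Fxyd3 was highest in the few keratinocytes. The 15 keratinocytes of the control library held 289 of its 483 UMIs, 59.8%, at 986 CPM. In the SM22-SmoM2 library, with 1 keratinocyte, that cell held 12 of 139 UMIs (8.63%) and Schwann cells held 101 (72.7%). Schwann cells were at 33.9 and 50.04 CPM, a log2 ratio of SM22-SmoM2 over control of 0.56 (0.19 to 0.93). Lgi4, which overlaps Fxyd3 on the other strand, was at 133 and 136 CPM in Schwann cells and at 0 in keratinocytes, so the keratinocyte level of Fxyd3 had no Lgi4 beside it. Whether Lgi4 reads add to Fxyd3 in Schwann cells was not tested. Fibroblasts held 25 UMIs in each library, 1.77 and 2.003 CPM, which overlapped the control mural cells at 3.21 CPM and immune cells at 1.43 CPM.

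Fxyd5 was above 50 CPM in all 5 lineages of both libraries. Control immune cells were at 544 CPM, endothelial cells at 351 CPM, Schwann cells at 197 CPM, fibroblasts at 137 CPM and mural cells at 118 CPM, and among these 5 only the last pair overlapped. In keratinocytes it was at 3.41 CPM, 1 UMI. In SM22-SmoM2 the level was 352 CPM in endothelial cells, 201 CPM in Schwann cells and 116 CPM in mural cells, so these 3 lineages differed little between libraries, with log2 ratios of 0.0041, 0.02 and -0.03 whose intervals held 0. Immune cells were lower in SM22-SmoM2, at 219 CPM, a log2 ratio of -1.31 (-1.68 to -0.96). In the immune cluster that both libraries filled, led by the macrophage genes C1qb, C1qa and Lyz2, the levels were 432 and 213 CPM in 43 and 29 cells. The cluster led by Cd74 and H2-Aa, genes of antigen presentation, held 39 control cells at 669 CPM and only 4 SM22-SmoM2 cells.

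Fxyd6 was at 53.7 and 37.9 CPM in fibroblasts. Endothelial cells of the control library held it at 24.2 CPM (161 UMIs) and those of the SM22-SmoM2 library at 6.73 CPM (12 UMIs), a log2 ratio of -1.85 (-2.83 to -1.003). Most of these UMIs were in the endothelial cluster led by Ccl21a, Lrg1 and Ackr1, with 121 UMIs (68.5 CPM) in control and 12 UMIs (16.5 CPM) in SM22-SmoM2. The other two endothelial clusters held 7.57 and 8.78 CPM in control and no UMI in SM22-SmoM2. In Schwann cells Fxyd6 went the other way, at 16.9 and 30.2 CPM, a log2 ratio of 0.83 (0.33 to 1.33). The cycling Schwann cluster held 60 of 678 control and 49 of 294 SM22-SmoM2 Schwann cells. The part of this mix in the ratio was not tested. Few endothelial cells carried Fxyd6, 5.43% in control and 0.885% in SM22-SmoM2.

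Atp1b1 stood out for where it was missing. Endothelial cells held 5 UMIs in control and none in SM22-SmoM2, 0.752 CPM and 0. Schwann cells were at 12.1 and 8.92 CPM, mural cells at 9.08 and 3.74 CPM, and immune cells at 25.7 and 5.47 CPM. All 18 control immune UMIs were in the cluster led by Cd74 and H2-Aa, at 54.5 CPM, and the macrophage-gene cluster had none in either library. In SM22-SmoM2 each lineage overlapped the next in order, but endothelial cells, with an interval up to 2.07 CPM, were apart from fibroblasts and Schwann cells.

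Fxyd7, a member known from neurons and glia, was a Schwann cell gene in the control library. Schwann cells held 69.5% of its control UMIs and fibroblasts 13.3%. In SM22-SmoM2 fibroblasts held 91.3% and Schwann cells 5.44%. The Schwann level itself was 18.9 CPM (89 UMIs) and 21.3 CPM (43 UMIs), a log2 ratio of 0.18 (-0.38 to 0.72), and the fibroblast level in SM22-SmoM2 was apart from and above it. Immune cells and mural cells of the SM22-SmoM2 library held 4 and 5 UMIs. Their levels were 18.9% and 16.2% of that in fibroblasts, and the summed fibroblast markers in the same cells were at 18.5% and 14.7% of their fibroblast level. The part of RNA shared between droplets in these few UMIs was not tested. In endothelial cells, where the fibroblast markers were at 2.27% of the fibroblast level, Fxyd7 was at 15.5%, from 13 control UMIs (1.95 CPM) and 16 SM22-SmoM2 UMIs (8.97 CPM), a log2 ratio of 2.20 (1.05 to 3.37).

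In fibroblasts, the cells with the higher Hedgehog targets above, the members parted. Fxyd7 was higher in the SM22-SmoM2 library, Fxyd5 and Atp1b1 were lower, and Fxyd1, Fxyd3 and Fxyd6 were within 2-fold. These 6 rows of the comparison all reached the minimum of 50 UMIs over both libraries. Of 11523 genes that did, 5.02% were at least 2-fold higher in SM22-SmoM2 and 4.91% at least 2-fold lower. The median log2 ratio was -0.34 over the members and -0.06 over all genes. As the comparison served to choose the members, their share of calls says nothing about the family.

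**Figure D2:**
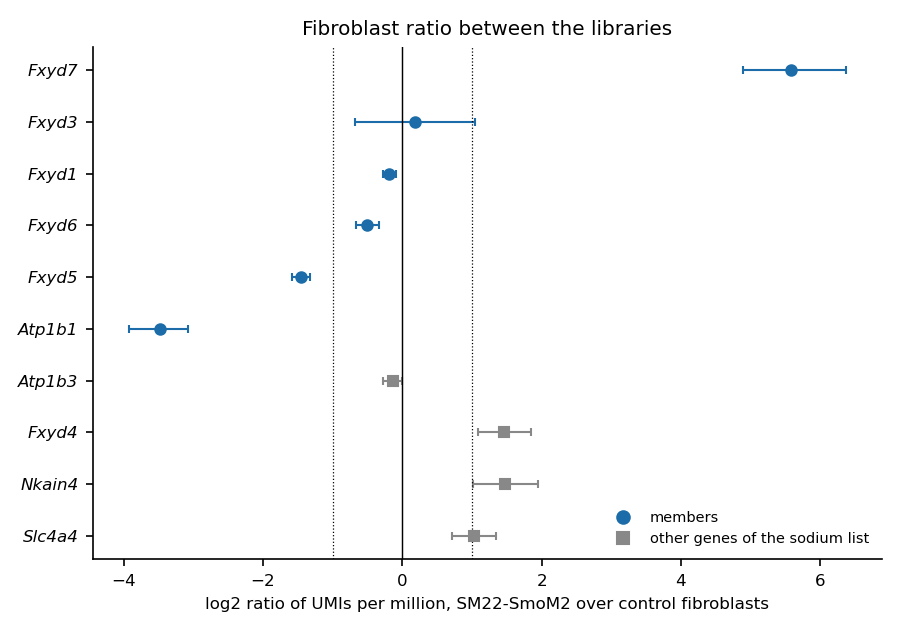
Log2 ratio of CPM, SM22-SmoM2 over control fibroblasts, with exact conditional 95% intervals, for the members (circles) and for 4 genes of the sodium list (squares). Of the members, Fxyd7 at 5.58, Atp1b1 at -3.49 and Fxyd5 at -1.45 lie beyond the dotted lines at 2-fold, and the beta subunit gene Atp1b3 lies at -0.14.

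Fxyd7 gave 17 UMIs in 1090 control fibroblasts and 721 UMIs in 1098 SM22-SmoM2 fibroblasts, 1.20 CPM (0.702 to 1.93) and 57.8 CPM (53.6 to 62.2). The log2 ratio was 5.58 (4.90 to 6.37), above 99.9% of the genes tested. UMIs were spread over many cells, since 319 SM22-SmoM2 fibroblasts held at least 1, the most in a cell was 11, and the 10 highest cells held 10.96% of them. In control 15 cells held any, with at most 2 each. With every cell thinned at random to 1500 UMIs, to level the depth, 3 control cells or 0.275% and 84 SM22-SmoM2 cells or 7.65% (interval 6.15% to 9.38%) had the gene, against 29.1% of SM22-SmoM2 cells unthinned. The thinned share of SM22-SmoM2 endothelial cells was 1.77%. Schwann markers were low in fibroblasts of both libraries, with the 8 genes summing to 52.6 and 47.4 CPM. In SM22-SmoM2 Schwann cells they summed to 3285 CPM. Whether RNA of Schwann cells adds to Fxyd7 in fibroblasts was not tested.

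Atp1b1 went the other way, with 646 UMIs or 45.8 CPM (42.3 to 49.4) in control fibroblasts and 51 UMIs or 4.09 CPM (3.04 to 5.37) in SM22-SmoM2 fibroblasts. The log2 ratio of -3.49 (-3.93 to -3.07) was above only 0.234% of the genes tested. Control UMIs came from 268 cells and SM22-SmoM2 UMIs from 44. After thinning, 64 control cells or 5.87% and 7 SM22-SmoM2 cells or 0.638% had the gene. Nme7, which overlaps the end of Atp1b1, was at 11.4 and 10.9 CPM. Whether Nme7 reads add to Atp1b1 was not tested.

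Fxyd5 differed by less than either, with 137 CPM (131 to 144) in control fibroblasts and 50.2 CPM (46.4 to 54.3) in SM22-SmoM2 fibroblasts. Its log2 ratio was -1.45 (-1.58 to -1.32), and 580 and 324 cells had a UMI. Fxyd5 and Fxyd7, whose genes are 31 bases apart on the same strand, thus differed in opposite directions. Fxyd1, 210 bases from Fxyd7 on its other side, had a log2 ratio of -0.18 (-0.28 to -0.09).

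Fxyd6 was lower by 0.50 on the log2 scale (interval of the ratio -0.67 to -0.33), with 758 UMIs in control and 473 in SM22-SmoM2. For Fxyd3 the ratio was 0.18, and its interval of -0.68 to 1.04 held both no difference and a doubling.

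The other beta subunits of the pump did not follow Atp1b1. Atp1b3, a widely used beta subunit, was at 65.9 and 59.9 CPM in fibroblasts, a log2 ratio of -0.14 (-0.28 to 0.00). Atp1b2 had 23 and 19 UMIs there and was highest in mural cells, at 147 and 133 CPM. Atp1b3 reached 211 and 185 CPM in endothelial cells, where Atp1b1 was nearly absent.

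A list of 36 genes of the pump, its relatives and sodium-linked transport was counted by the same rule. Of these, 23 reached the minimum, with a median log2 ratio of 0.05. In SM22-SmoM2 fibroblasts 3 were at least 2-fold higher, where 5.02% of all genes were, and none was 2-fold lower, where 4.91% were. The 3 were Fxyd4, the FXYD gene of kidney and colon, at 5.74 and 15.8 CPM (log2 ratio 1.46, interval 1.08 to 1.85), Nkain4, which codes for a protein that binds the pump's beta subunit, at 3.90 and 10.8 CPM (1.47, 1.01 to 1.95), and Slc4a4, a sodium bicarbonate cotransporter, at 9.21 and 18.8 CPM (1.03, 0.72 to 1.35). Slc20a1, a sodium phosphate cotransporter, was just inside the limit at 41.2 and 81.6 CPM (0.99, 0.84 to 1.14). Fxyd2, next to Fxyd6 on chromosome 9, was at 2.55 and 2.64 CPM.

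Fibroblasts were clustered again with the members, the sodium list and the 3 split genes left out of the clustering, and the sub-clusters are named by their 3 leading genes. They differed between the libraries in which cells they held, so the fibroblast averages above mix different sub-clusters.

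**Figure D3:**
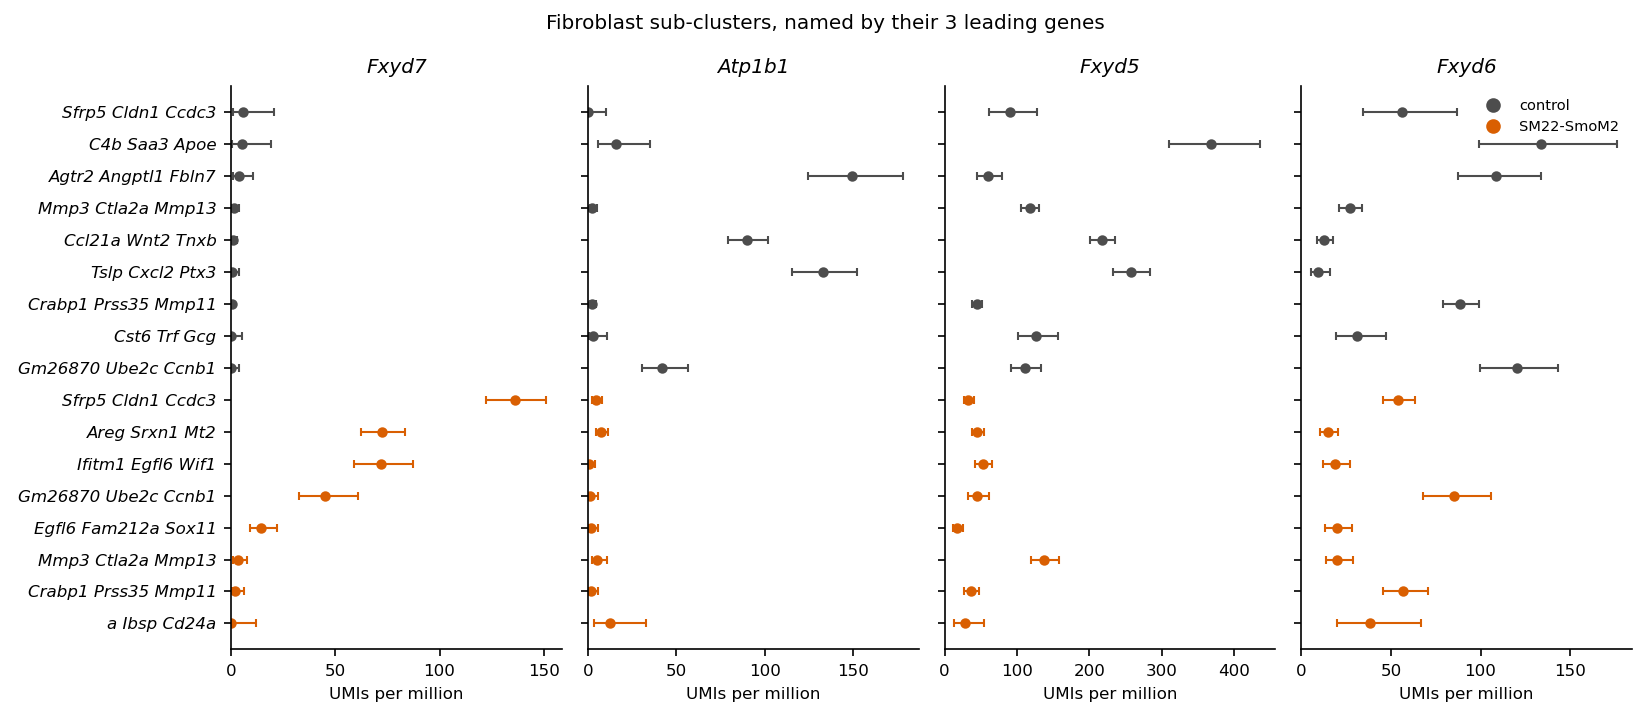
Level of 4 members (CPM of summed UMIs, with exact Poisson 95% intervals) in the fibroblast sub-clusters of each library, named by their 3 leading genes. Fxyd7 is at 136 CPM in the Sfrp5 Cldn1 Ccdc3 cells of SM22-SmoM2 and at most 5.63 CPM in the control sub-clusters shown, and Atp1b1 is at 90.1 to 149 CPM in 3 control sub-clusters.

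Fxyd7 was concentrated in the sub-cluster led by Sfrp5, Cldn1 and Ccdc3, at 136 CPM (122 to 151) in its 224 SM22-SmoM2 cells. The 36 control cells of that sub-cluster held 2 UMIs, 5.63 CPM (0.682 to 20.3), although their Penk was at 273 CPM. Next were the SM22-SmoM2 sub-clusters led by Areg, Srxn1 and Mt2, at 72.3 CPM in 202 cells, and by Ifitm1, Egfl6 and Wif1, at 72.0 CPM in 150 cells. The cycling cells, led by Gm26870, Ube2c and Ccnb1, were at 45.2 CPM in SM22-SmoM2 and at 0 in control. In the sub-cluster led by Egfl6, Fam212a and Sox11 the level was 14.5 CPM.

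Not every SM22-SmoM2 sub-cluster had the gene. The 46 cells led by a (Agouti), Ibsp and Cd24a, whose next leading gene was Rspo3, a Wnt pathway activator of the dermal papilla, had no Fxyd7 UMI, with an interval that reaches 11.8 CPM. The 120 SM22-SmoM2 cells led by Crabp1, Prss35 and Mmp11 were at 2.03 CPM and the 123 led by Mmp3, Ctla2a and Mmp13 at 3.34 CPM.

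Atp1b1 was nearly confined to a few control sub-clusters. Those led by Agtr2, Angptl1 and Fbln7 (82 cells), by Tslp, Cxcl2 and Ptx3 (107 cells) and by Ccl21a, Wnt2 and Tnxb (174 cells) were at 149, 133 and 90.1 CPM, and the control cycling cells at 42.0 CPM. The control sub-clusters led by Crabp1 and by Mmp3 were at 2.27 and 2.48 CPM, the same within their intervals as their SM22-SmoM2 counterparts at 2.03 and 5.35 CPM. No SM22-SmoM2 sub-cluster shown was above 12.8 CPM, the level of 4 UMIs in the 46 cells led by a, Ibsp and Cd24a.

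Among control sub-clusters Fxyd5 ran from 44.2 CPM in the Crabp1 cells to 257 CPM in the Tslp cells and 369 CPM in the 45 cells led by C4b, Saa3 and Apoe. Between libraries, it was at 117 and 137 CPM in the Mmp3 sub-cluster and 44.2 and 35.9 CPM in the Crabp1 sub-cluster. Male Crabp1 cells alone were at 29.4 and 29.6 CPM. In the cycling cells Fxyd5 was at 111 and 45.2 CPM. In the Sfrp5 sub-cluster, 20 control male cells were at 70.5 CPM (39.4 to 116). There, 173 SM22-SmoM2 male cells were at 32.5 CPM (25.3 to 41.1). The intervals of these levels overlapped at their edges, and no interval of their ratio was taken. Female cells led by Ifitm1, Egfl6 and Wif1 were at 197 CPM (119 to 308) in 10 control cells. The 21 SM22-SmoM2 female cells of that sub-cluster were at 56.7 CPM (29.3 to 99.0), an interval apart from that of control. In the SM22-SmoM2 Sfrp5 cells, where Fxyd7 was highest, Fxyd5 was at 32.9 CPM. SM22-SmoM2 sub-clusters with little Fxyd7 were not alike in Fxyd5. The Mmp3 cells were at 137 CPM and the Crabp1 cells at 35.9 CPM, as above. Male cells led by Egfl6, Fam212a and Sox11 were at 18.7 CPM.

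Among control sub-clusters of over 50 cells, Fxyd6 was at 120 CPM in the cycling cells, 109 CPM in the Agtr2 cells and 88.7 CPM in the Crabp1 cells. In SM22-SmoM2 the cycling cells were highest, at 85.2 CPM. It was low in the Tslp and Ccl21a sub-clusters, at 9.53 and 12.8 CPM, which were the highest for Fxyd5 among control sub-clusters of that size. The smaller C4b sub-cluster, still higher in Fxyd5, was not low in Fxyd6. Its 22 female cells held Fxyd6 at 257 CPM (185 to 349) and its 12 male cells at 21.9 CPM (4.51 to 63.9). Fxyd1 ran from 53.6 CPM in the SM22-SmoM2 Crabp1 cells to 234 CPM in the control cells led by Cst6, Trf and Gcg, and was above that in the C4b sub-cluster, at 483 CPM.

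The Mmp3, Crabp1 and cycling sub-clusters, the 3 in which both libraries had 50 cells or more, were then compared alone, a choice made after the data had been seen. In 566 control and 314 SM22-SmoM2 cells, Fxyd7 was at 0.678 CPM (5 UMIs) and 13.0 CPM (51 UMIs), a log2 ratio of 4.26 (2.95 to 5.94). Atp1b1 was at 7.87 and 3.06 CPM, a log2 ratio of -1.36 (-2.39 to -0.45). Fxyd5 was at 81.5 and 76.8 CPM, a log2 ratio of -0.09 (-0.29 to 0.12). That value joins sub-clusters that went different ways, since Fxyd5 was more than 2-fold lower in the cycling cells of SM22-SmoM2 and not in the Mmp3 or Crabp1 cells, as given above. Most of the Fxyd7 UMIs and of the Atp1b1 UMIs in these cells were those of the cycling sub-cluster, with 43 in SM22-SmoM2 and 43 in control.

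The sexes of the pooled mice were not equal among the fibroblasts, and Atp1b1 differed between them. Cells with UMIs of a Y-linked gene and none of Xist were taken as male, and those with Xist alone as female. Among fibroblasts, 645 of 865 such cells (74.6%) were male in control and 815 of 863 (94.4%) in SM22-SmoM2, against 57.6% and 55.6% of Schwann cells.

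**Figure D4:**
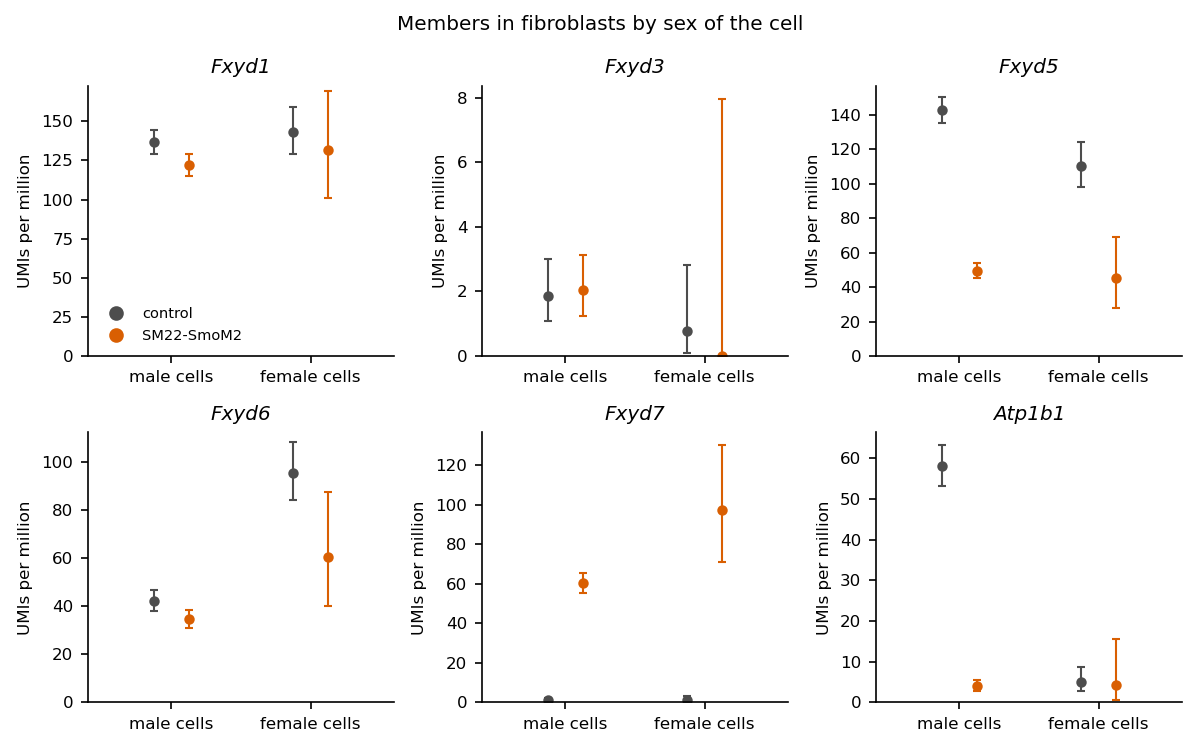
Level of the members (CPM of summed UMIs, with exact Poisson 95% intervals) in male and female fibroblasts of each library. Atp1b1 is at 58.0 CPM in control male cells and between 4.07 and 5.09 CPM in control female cells and in SM22-SmoM2 cells of both sexes.

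Control male fibroblasts held Atp1b1 at 58.0 CPM (528 UMIs in 645 cells), and control female fibroblasts at 5.09 CPM (13 UMIs in 220 cells). SM22-SmoM2 male and female fibroblasts were at 4.07 CPM (40 UMIs in 815 cells) and 4.32 CPM (2 UMIs in 48 cells). The library ratio was therefore -3.83 (-4.34 to -3.37) in male cells and -0.24 (-3.43 to 1.90) in female cells on the log2 scale. The 3 control sub-clusters with high Atp1b1 were 97.0% to 100% male. The control Crabp1 and Mmp3 sub-clusters held both sexes, and their male cells were at 2.22 and 2.13 CPM, near their female cells at 1.84 and 1.11 CPM. The control cycling sub-cluster also held both sexes, and there the 36 male cells were at 54.6 CPM (39.0 to 74.4) and the 10 female cells had no UMI (interval up to 20.98 CPM). The Cst6 sub-cluster was 100% male and at 2.94 CPM, so a male sub-cluster did not always have the gene. Each sex came from a few mice of the pool, so sex and mouse cannot be told apart.

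Fxyd7 was high in both sexes of the SM22-SmoM2 library. It was at 60.2 CPM in male fibroblasts and 97.1 CPM in female fibroblasts (45 UMIs in 48 cells, interval 70.9 to 130), and in control at 1.21 and 1.18 CPM. Of the 45 female UMIs, 28 were in 21 cells of the sub-cluster led by Ifitm1, Egfl6 and Wif1. That sub-cluster was at 132 CPM in female and 62.5 CPM in male cells. Fxyd5 was at 143 and 49.3 CPM in male cells of control and SM22-SmoM2 and at 110 and 45.3 CPM in female cells, with log2 ratios of -1.53 and -1.29. Control Crabp1 cells were instead higher in female cells, at 65.4 CPM (51.1 to 82.5) against 29.4 CPM (22.0 to 38.5) in male cells. So were the C4b cells, at 527 CPM (420 to 653) against 241 CPM (166 to 338). Female cells were lower in the control Mmp3 (90.0 against 112 CPM) and cycling (62.6 against 135 CPM) sub-clusters, with intervals that overlapped. Fxyd6 was higher in control female cells, 95.6 CPM, than in control male cells, 42.2 CPM, also within the Crabp1 sub-cluster, at 129 (109 to 152) and 66.6 (55.2 to 79.6) CPM. The control cycling cells went the same way, at 245 CPM (177 to 329) in 10 female and 97.0 CPM (75.7 to 122) in 36 male cells. So did the C4b cells, at 257 CPM (185 to 349) in 22 female and 21.9 CPM (4.51 to 63.9) in 12 male cells. In the control Mmp3 sub-cluster Fxyd6 ran the other way, with intervals that overlapped. It was at 17.8 CPM (10.2 to 28.9) in female and 34.1 CPM (25.1 to 45.2) in male cells.

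SM22-SmoM2 fibroblasts were then split by whether a cell had at least 1 UMI of Penk, the precursor of enkephalin peptides, of Egfl6, a secreted matrix protein, or of Areg, an EGF receptor ligand. Penk was found in 688 of 1098 cells (62.7%), Egfl6 in 310 (28.2%) and Areg in 104 (9.47%). In control fibroblasts 230, 38 and 17 cells had them. Of the members, 5 reached the minimum in each split, all but Fxyd3.

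**Figure D5:**
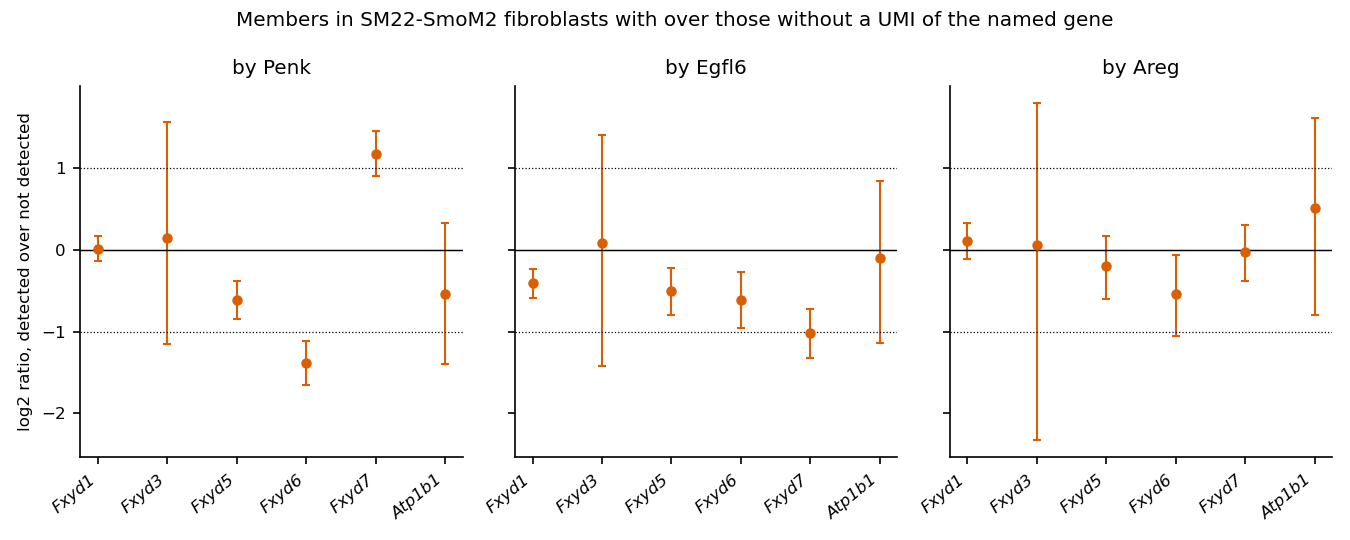
Log2 ratio of CPM of the members, SM22-SmoM2 fibroblasts with over those without a UMI of Penk, Egfl6 or Areg, with exact conditional 95% intervals and dotted lines at 2-fold. Fxyd7 lies at 1.17 with Penk and -1.02 with Egfl6, and Fxyd6 at -1.38 with Penk.

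With Penk, Fxyd7 was at 71.3 CPM against 31.7 CPM without (log2 ratio 1.17, 0.90 to 1.45), and Fxyd6 at 24.5 CPM against 63.8 CPM (-1.38, -1.65 to -1.11). Thus 1 member was 2-fold higher, where 0.966% of the 10042 genes tested were, and 1 was 2-fold lower, where 1.86% were. The Fxyd7 ratio was 0.96, under 2-fold, in cells of 5000 to 20000 UMIs, 2.36 with a 5% mitochondrial filter and 2.96 with the reported genes kept in clustering. The filter and the clustering also changed which cells were fibroblasts, to 997 and 1000 SM22-SmoM2 cells in place of 1098. Fxyd5 was at 42.5 CPM with Penk and 65.2 CPM without (-0.62, -0.85 to -0.39), while Fxyd1 was at 123 and 122 CPM. Atp1b1 was low on both sides, at 3.53 and 5.16 CPM. Cells with Penk were deeper, with a median of 11580 UMIs against 9215.5 UMIs. The fibroblast markers summed to 30224 CPM with Penk and 40400 CPM without, and the mural markers to 210 and 365 CPM, with Myh11 at 0 in the cells without Penk. Their part in these differences was not tested. Schwann markers were at 44.7 CPM with Penk and 52.8 CPM without, and their part was not tested either.

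With Egfl6, the ratios of all 5 members were below 0, and that of Atp1b1 had an interval that held 0. Fxyd7 was at 33.0 CPM against 66.9 CPM without (log2 ratio -1.02, -1.32 to -0.72), Fxyd6 at 27.4 against 41.8 CPM, Fxyd5 at 38.4 against 54.6 CPM, Fxyd1 at 98.5 against 131 CPM and Atp1b1 at 3.87 against 4.17 CPM. Only Fxyd7 passed 2-fold, so 1 member was lower, where 3.86% of genes were, and none was higher, where 2.28% were. The Fxyd7 call was lost with a 5% mitochondrial filter (-0.81), with the reported genes kept in clustering (-0.72) and after centring on the median of all genes (-0.98). Fxyd5 passed 2-fold lower with detection in cells thinned to 3000 UMIs (-1.20), and Fxyd6 in cells thinned to 1500 UMIs (-1.52). Cells with Egfl6 were shallower, with a median of 9760.5 UMIs against 11447.5 UMIs without. Their fibroblast markers summed to 21794 CPM, against 38091 CPM without. The part of depth and markers in these ratios was not tested. Median log2 ratios were -0.51 for the members and -0.03 for all genes. As the splits by Penk, Egfl6 and Areg served to choose the members, the members' calls and medians say nothing about the family.

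With Areg no member passed 2-fold, where 2.68% of genes were higher and 8.68% were lower. Fxyd7 was at 56.7 CPM with Areg and 57.9 CPM without, a log2 ratio of -0.03. Fxyd6 was at 27.0 and 39.3 CPM (-0.54, -1.06 to -0.07), where the median over all genes was -0.20. It passed 2-fold lower in male cells alone (-1.096), with detection of 2 UMIs or more (-1.38) and with detection in cells thinned to 3000 UMIs (-1.20).

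The genes of the sodium list past 2-fold differed between the splits, and whether the list differed from all genes was not tested. None of the list's 21 genes over the minimum passed 2-fold with Penk, where 0.966% of all genes were higher and 1.86% were lower. With Egfl6, 1 was higher, the kinase gene Sgk1 (log2 ratio 1.0001), and 3 were lower, Nkain1, Nkain4 and Slc4a4 (-1.21, -1.001 and -1.28). Of all genes, 2.28% were higher with Egfl6 and 3.86% were lower. The Nkain1 ratio rested on 7 UMIs in the Egfl6 cells (interval -2.61 to -0.05). With Areg, 4 were higher, Nkain1, Slc4a7, Slc20a1 and the ubiquitin ligase gene Nedd4l (1.38, 1.02, 1.24 and 1.96), and Slc20a2 was lower (-1.32). Of all genes, 2.68% were higher with Areg and 8.68% were lower. The Slc20a2 ratio rested on 3 UMIs in the Areg cells, and its interval of -3.64 to 0.30 held 0.

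A cell can hold several of the 3 genes, so the combinations were also taken apart. Fxyd7 was highest in the 450 cells with Penk alone, at 82.1 CPM, and was at 66.8 CPM in the 56 cells with Penk and Areg and 43.3 CPM in the 164 cells with Penk and Egfl6. It was lowest in the 121 cells with Egfl6 alone, at 11.8 CPM (14 UMIs), below the 259 cells with none of the 3 genes, at 40.8 CPM. Pooled over sub-clusters, Egfl6 cells thus had less Fxyd7 both with and without Penk. The SM22-SmoM2 sub-clusters with Egfl6 among their leading genes were not alike in Fxyd7, as given above. Fxyd6 was highest in the cells with none of the 3, at 77.3 CPM, against 35.3 CPM with Egfl6 alone and 24.5 CPM with Penk alone. Fxyd5 ran from 71.1 CPM with none to 47.2 CPM with Penk alone and 27.2 CPM with Penk and Egfl6.

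The same split of control fibroblasts gave other values. Control cells with Penk held 5 Fxyd7 UMIs and those without 12, 1.53 and 1.11 CPM, so Penk cells of the control library did not have Fxyd7 at the SM22-SmoM2 level. Fxyd1 was higher with Penk in control, at 178 against 127 CPM (log2 ratio 0.49, 0.35 to 0.63), where SM22-SmoM2 cells showed 0.01. Atp1b1 was lower with Penk in control, at 26.4 against 51.6 CPM. Fxyd6 was lower in both libraries, by 0.45 on the log2 scale in control.

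The genes with the most similar levels over the 19 clusters of at least 20 cells were found among 12015 genes with at least 100 UMIs, by Pearson's r of log2(CPM + 10), as a description. For Fxyd7 they were Galnt3 (0.90), Pex5l (0.87) and Pcp4 (0.82), and for Atp1b1 Prg4 (0.83), Zcchc5 (0.83) and Ccdc109b (0.82). Fxyd1 was closest to Tspan3 (0.96), Fxyd3 to Lrrn2 (0.97), Fxyd5 to Acsl5 (0.92) and Fxyd6 to Rnf170 (0.79). Between members, r was 0.72 for Fxyd1 and Fxyd3, both high in Schwann cells, -0.48 for Fxyd5 and Fxyd7, and -0.19 for Fxyd7 and Atp1b1. The keratinocyte cluster, with 15 control cells and 1 SM22-SmoM2 cell, was too small to enter. Values for Fxyd3 therefore leave out the cells where it was highest.

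Promoter windows from 250 bases before to 50 bases after the start were on hand for 5 of the 6 members, all but Fxyd7. The GLI consensus TGGGTGGTC, searched on both strands, was in none of the 5 and in 0.253% of 32851 mouse promoters. With so rare an exact match, finding none in 5 windows says nothing about the members.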

How the data were processed

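The authors sorted Tomato+ dermal cells, sequenced 10x Chromium 3′ v2 libraries and made UMI counts per gene and cell with Cell Ranger on mm10 (GRCm38). The deposited values are whole counts without normalization. The versions of Cell Ranger and of its annotation, and the strand counted, are not given in the sources used here. The deposited barcodes were those of the whole kit and could not be tied to matrix columns, so barcodes shared between libraries were not counted.

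Cells under 200 genes or over 10% mitochondrial UMIs were removed, and doublets were kept in the main analysis. Counts were scaled to 10000 per cell, and k-means (scikit-learn 1.9.0, scanpy 1.11.5, K = 20 for all cells and 15 for fibroblasts) used 2000 variable genes reduced to 20 principal components. The members, the sodium list, Penk, Egfl6 and Areg were left out of the clustering. A cluster was named by at least 3 markers at 10 CPM and 1.5 times the median cluster. Any cluster with over 6 such markers of dermal-papilla-like cells was named fibroblast. A name was withdrawn when the leading genes held more markers of another lineage. Fibroblast sub-clusters were left out by the same comparison of leading genes, which removed 17 control and 2 SM22-SmoM2 cells. A cluster of 138 cells led by Notch3, Abcc9 and Gm13889 stayed unnamed. UMIs were summed per group and divided by the group total (CPM). Intervals are exact: Poisson for levels, conditional for ratios, Clopper-Pearson for shares (scipy 1.17.1). A gene was called at 2-fold with at least 50 UMIs over both groups, and no ratio was taken when both counts were 3 or fewer. With 1 library per condition nothing was tested. The calculations were checked on simulated data.

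Of 27998 gene IDs, 27645 were found in GENCODE M21, 26501 of them with the same name. Genes named are the 6 members, the split genes, list genes past 2-fold or partner subunits, lineage markers, genes that lead a cluster, and the 3 genes most like a member. Lgi4, Nme7, Gli1, Ptch1, Smo, Fxyd2, Slc20a1 and genes named for their strand, label or place were added after their values were seen. Some genes of the lists are not reported singly here. The members and lists were chosen with earlier results of these data known. Alternatives were other mitochondrial, doublet, clustering, thinning, averaging, centring, minimum, detection and sex settings.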

Additional observations from a re-analysis of the deposited data

Results flagged for a closer look

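Fxyd6 differed between the libraries in opposite directions in different lineages. The log2 ratio of SM22-SmoM2 over control was -0.50 (interval -0.67 to -0.33) in fibroblasts and -1.85 (-2.83 to -1.003) in endothelial cells, but 0.83 (0.33 to 1.33) in Schwann cells. The endothelial value rests on 12 UMIs in SM22-SmoM2, found in 2 cells. With 1 library per condition the difference between lineages was not tested.

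Fxyd1 went opposite ways in the 2 libraries when fibroblasts were split by Egfl6. Cells with Egfl6 were higher in control, by a log2 ratio of 0.53 (0.24 to 0.81), at 197 against 136 CPM, and lower in SM22-SmoM2, by a log2 ratio of -0.41, at 98.5 against 131 CPM. Only 38 control cells had Egfl6. This difference was not tested either.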

How the results depend on the processing

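Fibroblast ratios kept their direction under the alternatives run, except Fxyd3, which ranged from -0.31 to 0.49 on the log2 scale. Atp1b1 ranged from -3.83 to -0.24, Fxyd1 from -0.28 to -0.12, Fxyd5 from -1.54 to -0.09, Fxyd6 from -0.95 to -0.29 and Fxyd7 from 4.26 to 6.37. In female cells alone the Atp1b1 ratio was -0.24, and Fxyd7, at 6.37, had only 48 UMIs, under the minimum, so that 0 members were called higher and 1 lower. In the shared sub-clusters alone, an alternative chosen after seeing the data, Fxyd5 was at -0.086 and 1 member was lower. The mean of per-cell CPM moved Fxyd1 to -0.28. Fxyd6 was at -0.78 with a 5% mitochondrial filter, -0.71 without one, -0.95 with the reported genes kept in clustering, -0.68 in thinned cells and -0.29 in male cells alone, and the cause of the first 4 was not tested. The 5% filter gave 1037 control and 997 SM22-SmoM2 fibroblasts, no filter 952 and 1105, and the kept genes 952 and 1000. The main setting had 1090 and 1098. In cells of 5000 to 20000 UMIs, 0 members were 2-fold higher with Penk, since Fxyd7 was at 0.96. Over all settings the Fxyd7 ratio by Penk ranged from 0.96 to 2.96. No member was 2-fold higher with Egfl6 or Areg under 15 alternatives each, but the calls of lower members changed, with Fxyd7 by Egfl6 from -1.59 to -0.72 and Fxyd6 by Areg from -1.38 to -0.29. Fxyd3 had no ratio in thinned or female cells. No paired analysis was possible because there was 1 library per condition and no test. Depth limits Fxyd3 in fibroblasts to 25 UMIs per library, and Fxyd7 and Atp1b1 in endothelial, mural and immune cells to at most 18 per group.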

Other observations

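The cluster led by Notch3, Abcc9 and Gm13889, 94 control and 44 SM22-SmoM2 cells that were given no lineage name because their leading genes joined those of mural and endothelial cells, had Fxyd5 at 270 and 208 CPM and Fxyd1 at 58.0 and 47.1 CPM. Fxyd7 was at 3.22 and 1.68 CPM there, and Fxyd3 had no UMI.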
